A study of Mus musculus with 4 samples.

Results

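Collagen chains are hydroxylated, glycosylated and folded in the endoplasmic reticulum (ER), exported, trimmed outside the cell and then crosslinked, and the genes of these steps were compared between G784E and WT mouse embryonic stem cells. The group held 34 genes of 24428 in the count tables, listed by name for their place in the pathway and matched by symbol, with the collagen-binding protein gene Sparc added. The cells, of strain 129SvEv at passage 15-20, received no treatment in medium with serum and LIF, and 2 libraries of poly(dT)-captured RNA were made from each group. G784E cells were heterozygous: they expressed a wild-type Smarca4-GFP fusion and a Smarca4-V5 fusion with the G784E change. WT cells expressed the same wild-type Smarca4-GFP fusion and a wild-type Smarca4-V5 fusion, so every cell studied carried both tags. Smarca4 encodes an ATPase of the BAF chromatin remodelling complex, and the study's title calls the change dominant-negative. Whether the libraries of a group came from separate cultures or clones is not given in the sources used here. P-values thus reflect only how far these libraries spread, and that spread may be technical. With 2 libraries per group, the test used draws each gene's spread in part from all tested genes.

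The collagen triple helix needs prolyl 4-hydroxylation to be stable at body temperature, and hydroxylated lysines carry sugars and serve as sites of crosslinks. The chaperone HSP47, encoded by Serpinh1, binds the folded helix in the ER, and wide COPII carriers take procollagen out. Early mouse embryos use this machinery above all for the type IV collagen of basement membranes, which parietal and visceral endoderm secrete.

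Gene counts were 6226145 and 8895433 in the G784E libraries and 7027108 and 10083442 in the WT libraries, so 1 count stood for 0.102 to 0.164 CPM (counts scaled to library size, by TMM). Of the 34 genes, 33 had enough counts to be tested. Mia3, whose product TANGO1 loads procollagen into carriers, was listed at 0 in all 4 tables, so no level is given for it. Smarca4 stood at 3868 and 3580 CPM in G784E and at 2423 and 2553 CPM in WT, with both alleles counted together. Genes of olfactory receptors, proteins of the nose, gave a per-length background of 0.195 and 0.0827 CPM per kb in G784E replicates 1 and 2, and of 0.178 and 0.0554 CPM per kb in WT replicates 1 and 2. Of the 33 tested genes, 8 lay under 5 times this background in at least 1 library, the closest, Colgalt2, at 2.01 times. Of the 8, P3h2 is also among the genes that fell. In the GENCODE M21 annotation, exons of 7 of the 34 genes overlap those of another gene in the tables. Among the genes named below as fallen this was Loxl2, by 7 bases. Genes absent from the tables, on the other strand, overlap exons of P3h2 by 1055 bases, Plod2 by 346 and Loxl2 by 301. The part of such overlaps in the counts was not tested.

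In G784E cells 8 of the 33 tested genes fell and none rose. They were P4ha1, P4ha2, Plod2, P3h2, Serpinh1, Loxl2, Pxdn and Sparc, at decreases of 3.10-fold to 7.84-fold (edgeR's quasi-likelihood test, Benjamini-Hochberg adjusted p under 0.05). Over all genes tested, 1.89% were lower and 0.672% higher by the same rule. By step, 2 of 4 prolyl 4-hydroxylation genes fell and 1 of 5 lysyl hydroxylation and glycosylation genes. So did 1 of 6 genes of prolyl 3-hydroxylation and its complex, 1 of 2 collagen chaperones and 2 of 6 crosslinking genes. No gene passed among 2 tested of secretion or 7 of propeptide trimming. The steps hold few genes each, and a difference between steps was not tested. At an unadjusted p under 0.05, 12 genes were lower, 2 of them in propeptide trimming, and 0 were higher, against 6.48% lower and 5.14% higher of all genes tested. Each later count at an unadjusted p stands against these shares. DESeq2 called 7 lower and 0 higher, against 2.26% and 0.940% of the 11484 genes to which it gave an adjusted p. It gave none to P4ha3, Colgalt2 and Loxl1, which were fitted but could not be called. Other genes with few counts may lack one too, so a later count of 0 in DESeq2 does not cover them. With limma-voom 7 and 0 were called, against 2.31% and 1.18%. The median log2 fold change, G784E over WT, was -0.36 over the 33 genes and 0.00 over all genes tested, and 18 of the 33 were lower in both G784E libraries than in both WT libraries, as were 19.4% of all tested genes. In such bulk samples, fewer cells of a type and less RNA per cell cannot be told apart.

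**Figure D1:**
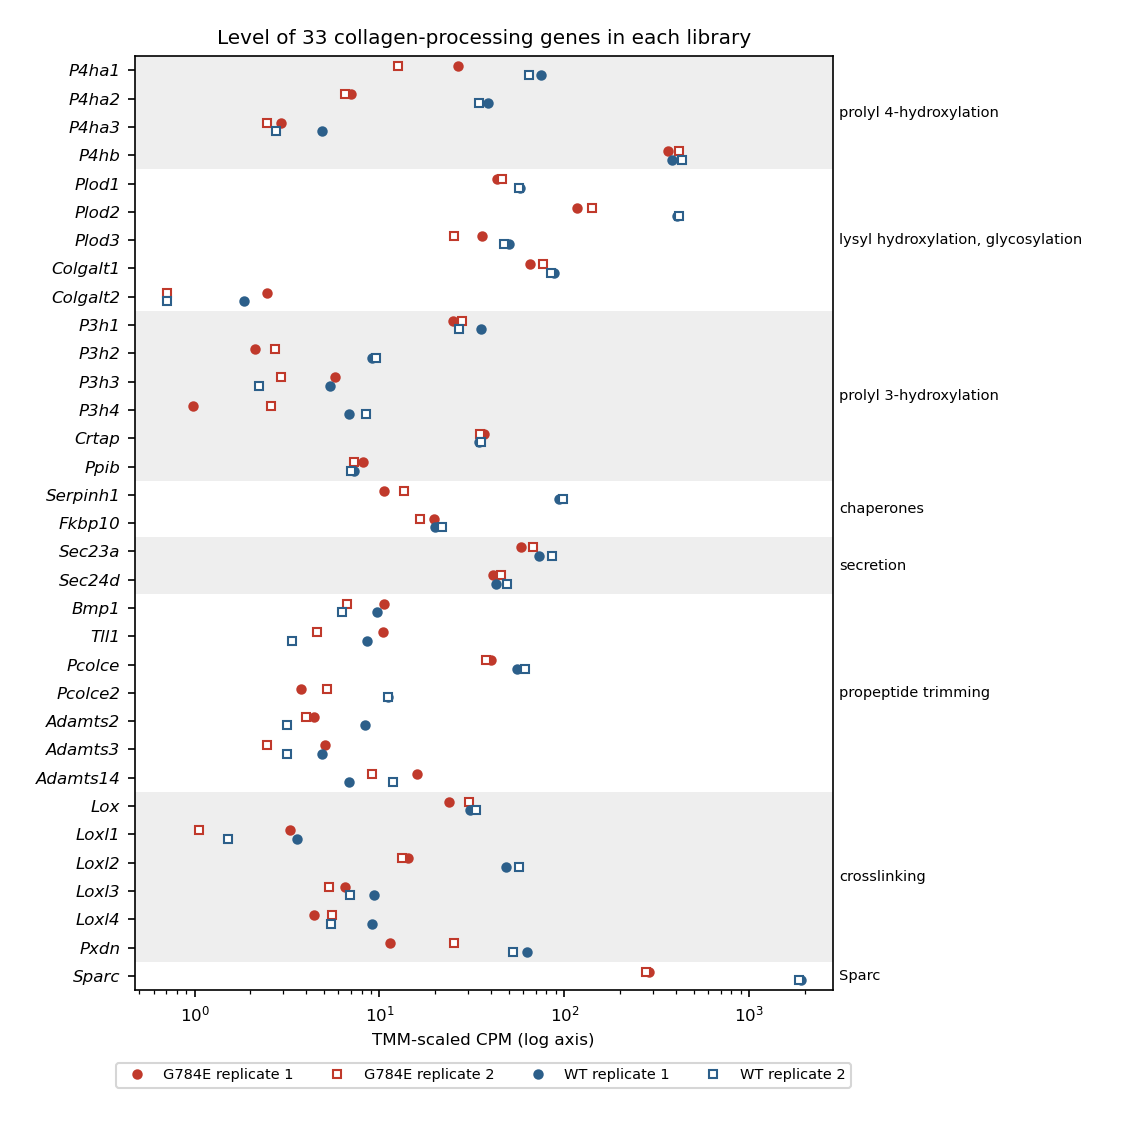
TMM-scaled CPM on a log axis for the 33 tested genes, grouped by step, with G784E libraries in red and WT libraries in blue, circles for replicate 1 and squares for replicate 2. The red points of Serpinh1 (10.6 and 13.6 CPM) and Sparc (286 and 275 CPM) lie far left of the blue ones (93.2 and 97.8 CPM; 1898 and 1866 CPM), while those of P4hb overlap.

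Prolyl 4-hydroxylase is a tetramer of catalytic alpha subunits and protein disulfide isomerase, and 2 of the 3 alpha subunit genes fell. P4ha1, the main alpha subunit gene of most tissues, stood at 26.5 and 12.6 CPM in G784E and at 74.3 and 64.0 CPM in WT. It fell 3.58-fold (log2 fold change -1.84, SE 0.27; edgeR, adjusted p = 0.000147). The decrease was larger in the libraries numbered 2 (log2 ratio -2.34) than in those numbered 1 (-1.49), and leaving out G784E replicate 1 or 2 gave log2 fold changes of -2.44 and -1.36. These 2 fits hold a lone G784E library and so drop the spread between the G784E libraries. With all libraries kept, the largest adjusted p over the alternatives was 0.00637 (edgeR, upper-quartile scaling).

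P4ha2, the alternative alpha subunit gene, stood at 7.04 and 6.48 CPM in G784E and at 38.6 and 34.6 CPM in WT. It fell 5.42-fold (-2.44, SE 0.27; edgeR, adjusted p = 3.7e-06), and each group's libraries lay close together. P4ha3, another alpha subunit gene, was scarce at 2.95 and 2.47 CPM in G784E and 4.89 and 2.74 CPM in WT, and it did not pass (-0.49, SE 0.77; edgeR, adjusted p = 0.963). P4hb, which encodes protein disulfide isomerase and also serves other secreted proteins, stood at 362 and 419 CPM in G784E and 384 and 433 CPM in WT (-0.06, SE 0.20; edgeR, adjusted p = 0.998). The groups overlapped for P4hb. Per kb of exon, the 3 alpha subunit genes together reached 0.0672 and 0.0334 of the P4hb level in G784E and 0.192 and 0.145 in WT.

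The promoters shown are those of genes that fell, chosen by that call. Whether these genes move together was not tested. RefSeq windows of build GRCm38.p6 were at hand for 24 of the 34 genes and for 5 of the 8 that fell. The 250 bases before the start are printed 5′ to 3′, with matches to ACGTG on either strand in capitals. ACGTG occurs in sites known for hypoxia-inducible factors, and a part of these factors in the decreases was not tested.
P4ha1, chr10:59323046-59323295, plus strand: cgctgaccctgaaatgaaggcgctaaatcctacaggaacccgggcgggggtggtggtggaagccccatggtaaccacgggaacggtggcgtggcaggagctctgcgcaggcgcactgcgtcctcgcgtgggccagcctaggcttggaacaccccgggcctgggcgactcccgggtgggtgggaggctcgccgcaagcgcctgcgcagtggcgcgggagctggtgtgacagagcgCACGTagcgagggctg
P4ha2, chr11:54100674-54100923, plus strand: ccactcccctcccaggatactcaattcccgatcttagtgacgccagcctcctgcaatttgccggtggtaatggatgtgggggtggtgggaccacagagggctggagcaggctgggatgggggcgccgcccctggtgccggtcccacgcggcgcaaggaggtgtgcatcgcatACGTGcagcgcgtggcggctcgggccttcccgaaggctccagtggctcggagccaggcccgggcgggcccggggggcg
Serpinh1, chr7:99353240-99353489, minus strand: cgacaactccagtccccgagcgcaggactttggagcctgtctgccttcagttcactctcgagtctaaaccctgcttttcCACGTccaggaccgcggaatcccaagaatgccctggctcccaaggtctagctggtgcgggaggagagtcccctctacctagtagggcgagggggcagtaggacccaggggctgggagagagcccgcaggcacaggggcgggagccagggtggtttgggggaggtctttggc
Pxdn, chr12:29937786-29938035, plus strand: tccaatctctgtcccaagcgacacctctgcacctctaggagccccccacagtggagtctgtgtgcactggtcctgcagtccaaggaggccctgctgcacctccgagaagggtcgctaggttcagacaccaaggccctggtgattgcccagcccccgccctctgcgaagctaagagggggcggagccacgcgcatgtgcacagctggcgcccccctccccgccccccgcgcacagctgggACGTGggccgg
Sparc, chr11:55420081-55420330, minus strand: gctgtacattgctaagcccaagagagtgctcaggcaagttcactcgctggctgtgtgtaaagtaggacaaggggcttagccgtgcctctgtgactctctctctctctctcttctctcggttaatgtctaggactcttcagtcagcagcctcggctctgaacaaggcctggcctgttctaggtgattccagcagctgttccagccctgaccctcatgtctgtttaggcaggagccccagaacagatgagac
The match began 16 bases before the start in P4ha1, 78 in P4ha2, 171 in Serpinh1 and 11 in Pxdn, and Sparc held none. ACGTG was thus in 4 of the 5 windows, in those of 7 of the other 19 genes and in 16.6% of all 32851 windows of that length. In all, 10 motifs were searched on both strands, and ACGTG was singled out after its matches were seen. The others were CCACG, known as part of the ER stress response element, the CRE part TGACGT, the GC box GGGCGG, the purine-rich motif GGGAGG, the CCAAT box itself, the TATA box TATAAA, the AP-1 motif TGANTCA, the GATA core GATAA and a wider GATA motif, which is AGATA or TGATA followed by A or G. CCACG and the CRE part can overlap ACGTG, and the GATA motifs can overlap each other. CCACG, the GC box and the purine-rich motif were each also in the windows of P4ha1, P4ha2, Serpinh1 and Pxdn, in those of 10, 15 and 14 of the other 19 genes, and in 28.3%, 32.7% and 38.0% of all windows. The GATA core was in none of the 5 windows and in 1 of the other 19, and the wider GATA motif in none and in 2, against 22.6% of all windows for the core and 26.5% for the wider motif. The CRE part, the TATA box and the AP-1 motif were also in none of the 5. They were in 4, 2 and 0 of the other 19 and in 6.47%, 12.4% and 6.75% of all windows. The CCAAT box was in 1 of the 5, in 7 of the other 19 and in 33.8% of all windows. A match describes the letters in a window and is not a binding site.

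Lysyl hydroxylases modify lysines of collagen, Plod2 chiefly those of the telopeptides, and Plod2 was the gene of this step that fell. It stood at 116.5 and 141 CPM in G784E and at 409 and 414 CPM in WT. The decrease was 3.20-fold (-1.68, SE 0.20; edgeR, adjusted p = 1.16e-05), with no overlap between groups. Plod3, whose product also glycosylates collagen, stood at 36.0 and 25.3 CPM in G784E and 49.9 and 47.2 CPM in WT. It did not pass over all libraries (-0.67, SE 0.23; edgeR, adjusted p = 0.168), and passed without G784E replicate 1 (-0.92, adjusted p = 0.0105, from 0.0105 to 0.783 over the alternatives). Plod1, the helical lysyl hydroxylase gene, stood at 43.4 and 45.8 CPM in G784E and 57.3 and 57.1 CPM in WT (-0.36, SE 0.21; edgeR, adjusted p = 0.579).

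Plod2 made up a smaller part of the lysyl hydroxylase messages in G784E. Per kb of exon, its part of the summed level of the 3 genes was 60.0% and 67.9% in G784E and 79.5% and 80.3% in WT. The summed level was 36.0 and 38.5 CPM per kb in G784E and 95.3 and 95.7 CPM per kb in WT. The galactosyltransferase gene Colgalt1, which adds the first sugar to hydroxylysine, stood at 65.5 and 76.7 CPM in G784E and 88.2 and 84.4 CPM in WT (-0.28, SE 0.20; edgeR, adjusted p = 0.734). Its paralogue Colgalt2 had 15 and 6 counts in G784E and 14 and 7 in WT, and no difference was detectable at this depth (0.29, SE 1.29).

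Prolyl 3-hydroxylation adds a rarer mark, made on fibrillar collagens by a complex of P3h1, Crtap and cyclophilin B. P3h2, the prolyl 3-hydroxylase known for type IV collagen, stood at 2.13 and 2.71 CPM in G784E and at 9.11 and 9.54 CPM in WT. It fell 3.82-fold (-1.93, SE 0.51; edgeR, adjusted p = 0.0402), the weakest of the 8 calls. Leaving out a WT library ended the call, at an edgeR adjusted p of 0.289 (replicate 1) and 0.447 (replicate 2). So did limma-voom at 0.124, upper-quartile scaling at 0.0683, DESeq2 at 0.0562 and the stricter filter at 0.0557, with log2 fold changes of -1.97 to -1.89 in these 6 fits. Over the alternatives the adjusted p ran from 0.00589 to 0.447. P3h2 rested on 13 and 23 counts in G784E and 69 and 94 in WT, and lay 2.92 and 8.81 times over the olfactory background in G784E and 13.7 and 46.3 times in WT. The part of that background in its decrease was not tested.

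P3h4, a noncatalytic relative that acts with lysyl hydroxylase 1, stood at 0.982 and 2.59 CPM in G784E and at 6.87 and 8.43 CPM in WT. Both G784E libraries were lower, on 6 and 22 counts, but P3h4 did not pass (-2.06, SE 0.63; edgeR, adjusted p = 0.094). It passed without G784E replicate 2 (-2.92, adjusted p = 0.0179, from 0.00858 to 0.655 over the alternatives). P3h1 stood at 24.9 and 28.0 CPM in G784E and 35.5 and 26.9 CPM in WT (-0.23, SE 0.24; edgeR, adjusted p = 0.877), and P3h3 did not pass either (0.18, SE 0.69; edgeR, adjusted p = 0.999).

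Neither partner of P3h1 passed. Crtap stood at 36.6 and 34.9 CPM in G784E and 34.6 and 35.2 CPM in WT (0.03, SE 0.22; edgeR, adjusted p = 1.00). Ppib, the cyclophilin B gene, had 50 and 62 counts in G784E and 55 and 69 in WT, or 8.18 and 7.30 against 7.26 and 7.01 CPM (0.12, SE 0.41; edgeR, adjusted p = 0.999). Ppib was the 1 gene of the group that was higher in both G784E libraries, as were 19.4% of all tested genes. Its exons overlap those of Snx22 on the other strand, and reads placed at more than 1 site were left out of the tables, so its level is uncertain. As part of the summed per-kb level of the 4 P3h genes, P3h1 made up 72.3% and 73.2% in G784E and 57.0% and 49.98% in WT.

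Among the chaperones, Serpinh1 showed the largest decrease of the 33 tested genes. HSP47, its product, is dedicated to collagen. Serpinh1 stood at 10.6 and 13.6 CPM in G784E and at 93.2 and 97.8 CPM in WT, a 7.84-fold decrease (-2.97, SE 0.24; edgeR, adjusted p = 9.72e-09). Its log2 ratio of same-numbered libraries came to -3.13 for replicate 1 and -2.85 for replicate 2. Fkbp10, which encodes the ER prolyl isomerase FKBP65, stood at 19.8 and 16.6 CPM in G784E and 19.9 and 21.7 CPM in WT, and did not pass (-0.20, SE 0.26; edgeR, adjusted p = 0.936). Per kb, Serpinh1 was 0.0344 and 0.0379 of the P4hb level in G784E and 0.285 and 0.265 in WT.

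**Figure D2:**
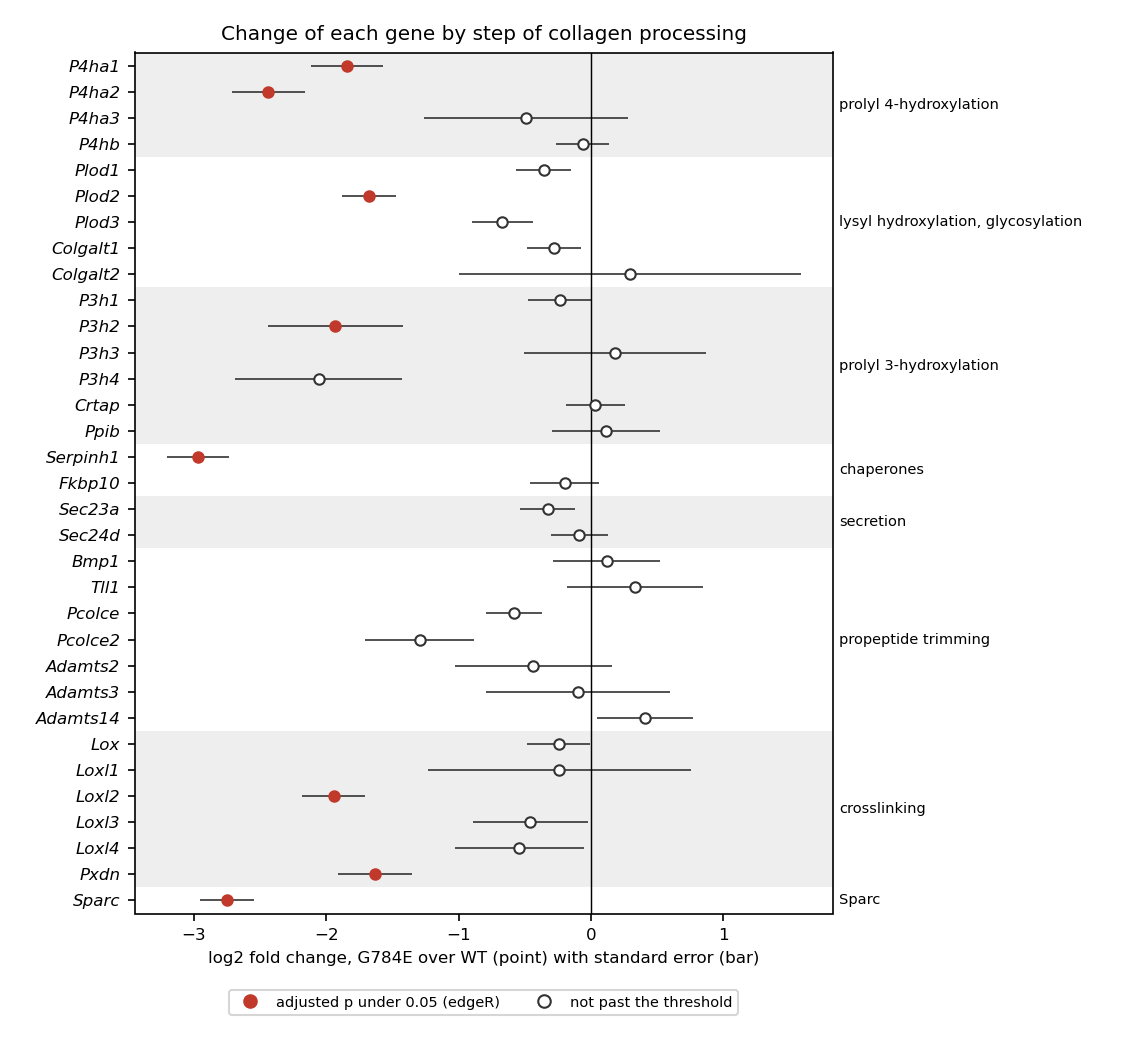
Log2 fold change, G784E over WT, with its standard error for the 33 tested genes, grouped by step; filled red points passed edgeR's test at an adjusted p under 0.05. The 8 filled points lie between -2.97 (Serpinh1) and -1.63 (Pxdn), and none lies right of 0.

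The export genes tested were the COPII coat genes Sec23a and Sec24d, both known from zebrafish to be needed for collagen secretion by cartilage cells. Sec23a stood at 58.1 and 67.6 CPM in G784E and 72.6 and 85.2 CPM in WT (-0.33, SE 0.21; edgeR, adjusted p = 0.642). Sec24d stood at 40.9 and 45.5 CPM in G784E and 42.8 and 49.0 CPM in WT (-0.09, SE 0.22; edgeR, adjusted p = 0.994). Neither passed, also at an unadjusted p under 0.05, in DESeq2 and in limma-voom, where 0 of the 2 were called. The groups overlapped for Sec24d.

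In propeptide trimming, none of 7 genes passed in edgeR without a replicate block, DESeq2 or limma-voom. Pcolce, the enhancer of procollagen C-proteinase, stood at 40.3 and 37.7 CPM in G784E and at 55.5 and 60.9 CPM in WT (-0.58, SE 0.21; edgeR, adjusted p = 0.208). Its paralogue Pcolce2 stood at 3.76 and 5.18 CPM in G784E and 11.1 CPM in each WT library (-1.30, SE 0.41; edgeR, adjusted p = 0.112). Both were lower in both G784E libraries, with unadjusted p of 0.0119 for Pcolce and 0.0042 for Pcolce2. Over the alternatives the adjusted p ran from 0.0412 to 0.744 for Pcolce and from 0.034 to 0.591 for Pcolce2. Exons of Pcolce overlap those of Fbxo24 on the same strand.

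The proteinase genes themselves were scarce. Bmp1, the C-proteinase gene, stood at 10.6 and 6.71 CPM in G784E and 9.64 and 6.29 CPM in WT (0.12, SE 0.40). Its relative Tll1 stood at 10.5 and 4.59 CPM in G784E and 8.58 and 3.35 CPM in WT (0.33, SE 0.51). Both were higher in replicate 1 of each group, as the olfactory receptor background was, and the part of that background in these values was not tested. The N-proteinase genes Adamts2 (-0.44, SE 0.59), Adamts3 (-0.10, SE 0.69) and Adamts14 (0.41, SE 0.36) overlapped between groups and did not pass, at edgeR adjusted p of 0.941, 1.00 and 0.821. Adamts14 had the highest log2 fold change of the 33 genes.

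Crosslinking is carried out on lysines by the lysyl oxidase family and on type IV collagen also by peroxidasin. Loxl2, a lysyl oxidase known to act on type IV collagen, stood at 14.2 and 13.2 CPM in G784E and at 48.6 and 56.9 CPM in WT. It fell 3.85-fold (-1.95, SE 0.24; edgeR, adjusted p = 1.39e-05). Pxdn, which encodes peroxidasin and forms the sulfilimine bond between type IV collagen trimers, stood at 11.5 and 25.2 CPM in G784E and at 62.7 and 52.8 CPM in WT.

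Pxdn fell 3.10-fold (-1.63, SE 0.28; edgeR, adjusted p = 0.000798), and its G784E libraries differed from each other. Without G784E replicate 2 the log2 fold change was -2.31 and without G784E replicate 1 it was -1.18, in fits with a lone G784E library. With all libraries kept, the largest adjusted p over the alternatives was 0.00722 (edgeR, upper-quartile scaling). Lox, the founding member of its family, stood at 23.7 and 30.5 CPM in G784E and 31.0 and 33.4 CPM in WT (-0.24, SE 0.24; edgeR, adjusted p = 0.855). Loxl1 (-0.24, SE 0.99), Loxl3 (-0.46, SE 0.43) and Loxl4 (-0.54, SE 0.49) did not pass, at edgeR adjusted p of 1.00, 0.85 and 0.828. Of these, Loxl3 overlaps exons of Htra2 on the other strand.

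Loxl2 and Lox changed places as the most abundant family member per kb. Loxl2 made up 23.8% and 21.02% of the summed per-kb level of the 5 lysyl oxidase genes in G784E and 43.3% and 50.6% in WT. Lox made up 44.9% and 54.98% in G784E and 31.3% and 33.7% in WT. With 2 libraries against 2, no exact permutation test of such a share can go below p = 0.333, so the shares are given as description.

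**Figure D3:**
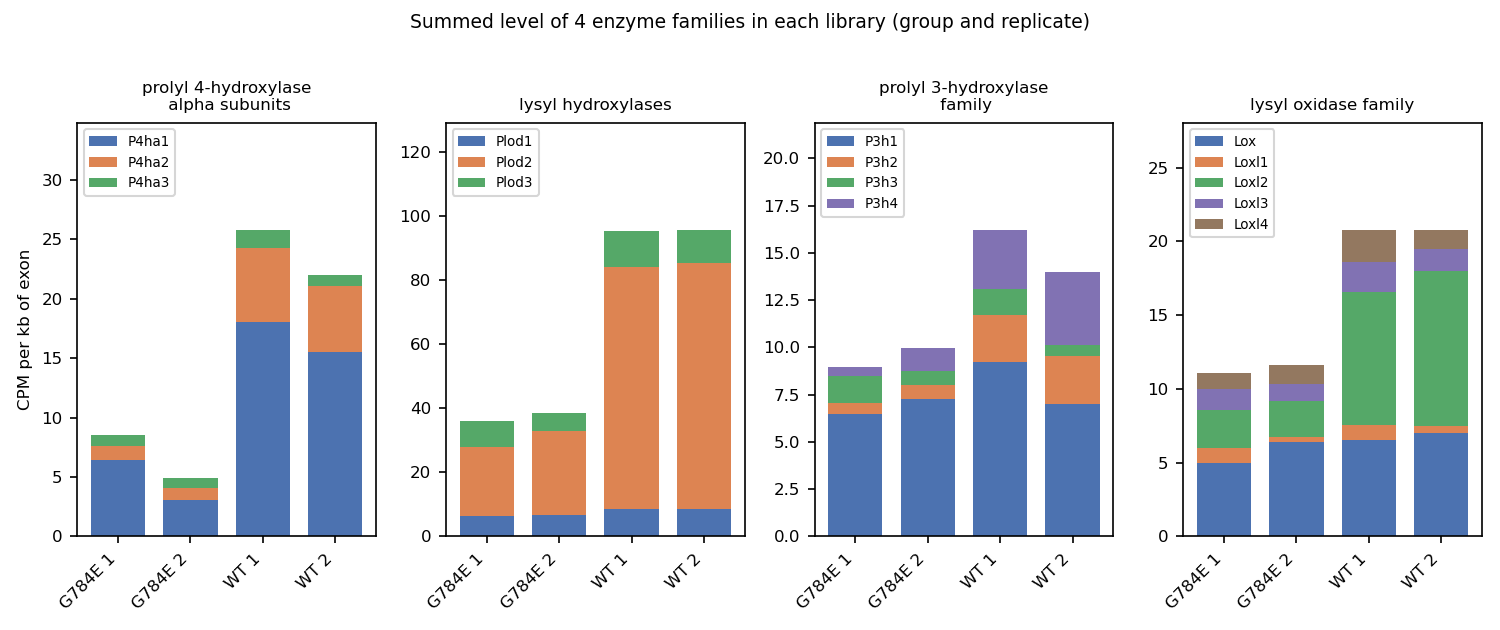
Stacked bars of CPM per kb of exon for the members of 4 enzyme families in each library, with the G784E libraries left of the WT libraries and each axis starting at 0. The lysyl hydroxylase sum is 36.0 and 38.5 in G784E and 95.3 and 95.7 in WT, and Plod2 (orange) makes up most of the difference in height.

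Sparc, which encodes a secreted collagen-binding glycoprotein abundant in parietal endoderm, was the most abundant gene of the group in WT cells. It stood at 286 and 275 CPM in G784E and at 1898 and 1866 CPM in WT, 6.71-fold lower in G784E (-2.75, SE 0.20; edgeR, adjusted p = 2.63e-09). Over all alternatives its log2 fold change stayed between -2.79 and -2.70. Per kb of exon, Sparc stood at 74.01 ± 2.11 CPM in G784E and 497 ± 5.97 in WT (SD, n = 2 each).

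The per-kb order of the genes thus differed between the groups at the top. P4hb stood first in G784E at 136.5 ± 14.0 CPM per kb and second in WT at 143 ± 12.1 (SD, n = 2 each). Plod2 was 3rd in both groups, at 23.9 ± 3.20 in G784E and 76.3 ± 0.753 in WT. Serpinh1 was 14th in G784E at 4.95 ± 0.842 CPM per kb and 4th in WT at 39.1 ± 1.32, and P4ha1 was 15th in G784E at 4.75 ± 2.39 and 7th in WT at 16.8 ± 1.78. Crtap and Colgalt1 were 4th and 5th in G784E at 20.2 ± 0.712 and 16.4 ± 1.84 CPM per kb, and 6th and 5th in WT at 19.7 ± 0.253 and 19.9 ± 0.628. In WT, Crtap and Colgalt1 differed by less than their SD.

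Genes for the collagen chains themselves mostly did not pass. Several of these lay near the olfactory background, such as Col4a5 at 1.99 to 2.76 times it. Of 9 tested chains of basement membranes and associated collagens, 2 fell, the type IV chain genes Col4a1 and Col4a2. They were the most abundant of the listed chains in WT. Col4a1 stood at 63.0 and 56.9 CPM in G784E and at 817 and 847 CPM in WT. It fell 13.9-fold (-3.80, SE 0.22; edgeR, adjusted p = 5.34e-11). Col4a2 stood at 48.8 and 26.97 CPM in G784E and at 486 and 508 CPM in WT. It fell 13.2-fold (-3.72, SE 0.26; edgeR, adjusted p = 7.64e-10). Of 11 fibrillar chains, 1 fell, Col27a1, at 13.6 and 6.24 CPM in G784E and 27.2 and 26.7 CPM in WT (-1.47, SE 0.31; edgeR, adjusted p = 0.00809). Col27a1 was at -2.09 without G784E replicate 1 and at -0.97 without G784E replicate 2. With all libraries kept, its largest adjusted p over the alternatives was 0.0495 (edgeR, upper-quartile scaling). Col1a1, the main chain of fibrillar collagen, stood at 52.2 and 36.8 CPM in G784E and 39.5 and 25.3 CPM in WT (0.46, SE 0.25; edgeR, adjusted p = 0.527). Of 17 other tested chains, 0 passed in edgeR, DESeq2 and limma-voom, and 1 was lower and 0 higher at an unadjusted p under 0.05, near the 6.48% and 5.14% of all genes. DESeq2 gave no adjusted p to some genes with few counts, so scarce chains among the 17 may have been unable to pass there.

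General ER folding genes did not pass in edgeR or DESeq2, where 0 of 19 tested were called. Among the 19, the median log2 fold change was -0.09 and values ran from -0.68 (Dnajc3) to 0.42 (Calr). Of these, 3 were lower and 1 higher, Calr, at an unadjusted p under 0.05 (6.48% and 5.14% of all genes), and limma-voom called 2 lower, Dnajc3 (-0.68, adjusted p = 0.0327) and Fkbp9 (-0.67, adjusted p = 0.0424). Over the alternatives the adjusted p ran from 0.00252 to 0.519 for Dnajc3 and from 0.00492 to 0.607 for Fkbp9. For Calr, a lectin chaperone gene, it ran from 0.0148 to 1.00, and the lowest of these was a call as higher. Hspa5, the BiP chaperone gene, stood at 484 and 656 CPM in G784E and 577 and 633 CPM in WT. Among 19 tested genes of the COPII coat and export, 1 fell, Creb3l2, a transcription factor gene whose product is known to activate Sec23a in cartilage. Creb3l2 stood at 14.9 and 10.95 CPM in G784E and at 35.9 and 41.7 CPM in WT (-1.60, SE 0.26; edgeR, adjusted p = 0.00041). The median of that list was -0.02.

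Among 10 tested SPARC relatives and other matrix binders, 0 passed in edgeR, DESeq2 and limma-voom, and 2 were lower and 0 higher at an unadjusted p under 0.05. The 2 were Thbs1 (-0.63, SE 0.21; edgeR, adjusted p = 0.16) and Tnc (-0.72, SE 0.25; edgeR, adjusted p = 0.167). Fibronectin (Fn1), the most abundant of them in CPM, stood at 1127 and 1239 CPM in G784E and 1090 and 1188 CPM in WT (0.05, SE 0.19; edgeR, adjusted p = 0.999). Among 9 tested genes of collagen breakdown, 0 passed in edgeR and DESeq2, with 1 lower and 1 higher at an unadjusted p under 0.05. The lower one was Mmp2 (-0.90, SE 0.29; edgeR, adjusted p = 0.128). The higher one, the matrix metalloproteinase gene Mmp11, passed in limma-voom (0.93, adjusted p = 0.0142) and not in edgeR (0.96, SE 0.27, adjusted p = 0.0592; 1.9e-05 to 0.469 over the alternatives). Among 6 other 2-oxoglutarate hydroxylase genes, 0 passed in edgeR, DESeq2 and limma-voom. At an unadjusted p under 0.05, 1 was lower, the HIF prolyl hydroxylase gene Egln3 (-0.97, SE 0.28; edgeR, adjusted p = 0.0691), and 0 were higher. Medians were -0.17, 0.02 and 0.15 for these 3 lists.

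Most tested markers of endoderm were lower too. Of 17 listed endoderm markers, 14 were tested and 10 fell, with a median log2 fold change of -3.11. Foxa2 (-3.01), Hnf4a (-2.32) and Plat (-1.30) were lower without passing. Afp went the other way without passing (0.79, SE 1.33). Ttr, not tested, stood at 0.818 and 0.942 CPM in G784E and at 0.528 and 0.406 CPM in WT. The summed level of the 17 was 270 to 280 CPM in G784E and 2636 to 2941 CPM in WT. Lama1 made up most of that sum, at 157 and 174 CPM in G784E and 1462 and 1596 CPM in WT. Gata6 stood at 2.29 and 2.59 CPM in G784E and 33.1 and 32.4 CPM in WT, and Sox17 at 0.654 and 1.30 CPM in G784E and 21.4 and 14.3 CPM in WT. None of the 17 was at 0 in every library, and Amn, Ttr and Apoa1 stayed under 1 CPM in all 4 libraries. The part of endoderm cells in the decreases was not tested.

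Of 13 listed fibroblast markers, 9 were tested and 1 fell, Cald1, with a summed level of 159 to 177 CPM in G784E and 247 to 274 CPM in WT. Cald1, a contractile gene of many cell types, made up most of that sum, at 108 and 96.8 CPM in G784E and 207 and 191 CPM in WT (-0.96, SE 0.20; edgeR, adjusted p = 0.00666). At an unadjusted p under 0.05, 1 fibroblast marker was lower and 1 higher, the fibrillin gene Fbn1, at 40.4 and 22.1 CPM in G784E and 19.0 and 20.6 CPM in WT (0.65, SE 0.27; edgeR, adjusted p = 0.314). Without WT replicate 1 Cald1 did not pass (-0.90, edgeR, adjusted p = 0.0801, from 2.16e-06 to 0.0801 over the alternatives). Dcn and Lum, proteoglycan genes typical of fibroblasts, stood between 0.164 and 1.65 CPM in all 4 libraries. All 8 stem cell markers were tested, with a summed level of 2106 to 2260 CPM in G784E and 1807 to 2012 CPM in WT. Of these, 0 passed in edgeR, DESeq2 and limma-voom, and 1 was higher and 0 lower at an unadjusted p under 0.05.

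**Figure D4:**
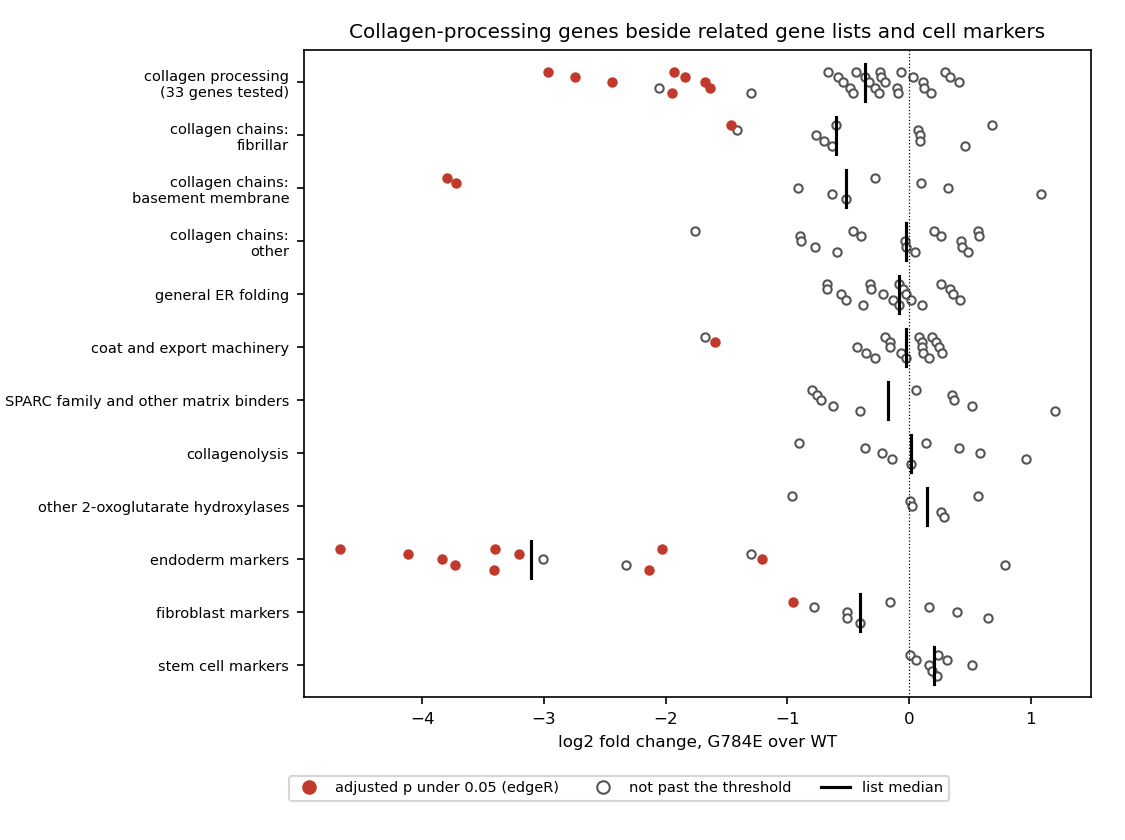
Log2 fold change, G784E over WT, of every tested gene in each list, filled red where edgeR's adjusted p was under 0.05, with the list median as a black bar. The filled points of the collagen-processing genes lie left of 0, the general ER folding genes have none, and the endoderm markers have a median of -3.11.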

How the data were processed

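RNA-seq of 4 libraries, 2 of G784E and 2 of WT mouse embryonic stem cells, was used, with groups and replicate numbers taken from the labels. The authors deposited raw counts of reads per gene symbol, 1 table per library. The submitters' processing notes name build mm9, DESeq2, HTSeq, Bowtie2 2.1.0 and CASAVA 1.8.2, with no order. Annotation, counting mode and strand setting were not given in the sources used here, so reads of overlapping or antisense genes may be mixed. Rows that name no gene held 88.3% and 83.7% of reads for G784E, 88.7% and 83.3% for WT, and entered neither library sizes nor tests. Reads not placed uniquely were 55.4% to 61.8%. Of the gene counts, the ribosomal RNA precursor Rn45s held 16.0% and 10.6% in G784E replicates 1 and 2. In WT replicates 1 and 2 it held 11.9% and 10.0%, and it entered the library sizes of the main fit.

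Genes were tested with edgeR 4.0.16 (R 4.3.3; glmQLFit and glmQLFTest, TMM scaling, filterByExpr with a minimum count of 10 and total of 15, group as the single term, 2 residual degrees of freedom) over 15763 of 24428 genes. P-values were adjusted by Benjamini-Hochberg over all of these, with a threshold of 0.05. SE is the size of the log2 fold change over the square root of F. CPM are TMM-scaled, and levels per kb used union exon lengths of GENCODE M21 (GRCm38), matched by symbol for all 34 genes, since the authors' annotation was not at hand. Background per kb came from 1114 olfactory receptor genes. Intervals and floors (3 counts, 0.305 to 0.491 CPM) would reflect counting error alone, as reads copied by PCR are no independent molecules. Alternatives were DESeq2 1.42.0, limma-voom (limma 3.58.1), scaling by RLE or upper quartile, a filter stricter than the main one (50 counts in total and 1 CPM in 2 libraries), no filter, a robust prior, a replicate block, no Rn45s, and each library left out with the tested genes kept. The procedures were tested on simulated counts with 200 changed genes. The spread set there was smaller than that between these libraries (common biological coefficient of variation 0.317). The simulation thus checks that the procedures run and does not show how they behave on these libraries.

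All 34 genes are named; of the other pathway lists, genes past the threshold are named, and further genes given were picked with their values known. The members, lists and alternatives were chosen with earlier results of these data known. No set test was run and no p-value was adjusted over the members alone.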

Additional observations from a re-analysis of the deposited data

How the results depend on the processing

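Of the 8 collagen-processing genes that fell, P4ha1, P4ha2, Plod2, Serpinh1, Loxl2, Pxdn and Sparc kept direction and call under all 13 alternatives, and P3h2 kept them under 7. The number of the 33 tested collagen-processing genes called lower ran from 7 to 9 with a library left out, was 12 with the replicate block and 7 or 8 otherwise, and 0 were called higher under any alternative. The labels do not say that a replicate number marks a shared culture or day. Deviations of same-numbered libraries from their group means correlated at 0.476 across genes, which is a hint from the data and not the design. With the replicate block, Plod3, P3h4, Pcolce and Pcolce2 were added to the 8 calls (Pcolce at an adjusted p of 0.0412, Pcolce2 at 0.034), Calr passed as higher (0.41, adjusted p = 0.0148), and over all genes 658 (4.17%) were lower and 546 (3.46%) higher. Without it, 298 were lower and 106 higher, with ranges of 156 to 532 and 29 to 307 when a library was left out, and limma-voom called 186 higher; the cause was not tested.

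Signs changed among genes that had not passed. With a library left out, log2 fold changes ran from -0.151 to 0.0561 for P4hb, -0.82 to 1.12 for Colgalt2, -0.35 to 0.94 for P3h3, -0.182 to 0.0148 for Sec24d, -0.22 to 0.45 for Bmp1, -0.35 to 1.15 for Tll1, -0.98 to 0.42 for Adamts2, -0.68 to 0.36 for Adamts3, -0.0269 to 0.861 for Adamts14 and -1.23 to 0.49 for Loxl1. They ran from -0.30 to 0.13 for Hspa5 and -0.00662 to 0.139 for Fn1. Crtap was at -0.0051 with no filter and -0.00062 without Rn45s. Leaving out a library leaves 1 residual degree of freedom, with the lone library assumed to vary like the other group. Colgalt2, Loxl1 and P4ha3 rested on 6 to 37 counts per library, with SEs of 0.77 to 1.29, so depth limits what can be said of them.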
